A study of Mus musculus with 2 samples.

Results

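Hepcidin and the genes of iron sensing and transport were followed in spatial transcriptomes of mouse liver. They were 10 genes taken by name: Hamp, Hamp2, Tfr2, Tfrc, Trf, Slc40a1, Bmp6, Id1, Smad7 and Ftl1. Of these, 9 were measured among the 19465 genes of the count tables, and Ftl1 was not analysed here.

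The sections came from 1 AEG-1-WT (WT) and 1 AEG-1-C75S (C75S) mouse, both 8-week-old untreated females and littermates from a cross of heterozygous parents. AEG-1-C75S is a CRISPR/Cas9 knock-in in which the cysteine at residue 75 of AEG-1, the site where the protein is palmitoylated, is a serine; it is not limited to one cell type by a promoter or Cre. The study asked how loss of this modification changes gene regulation across the liver lobule, using 1 formalin-fixed 5 µm section per genotype on Visium slides, whose probes give a UMI count (unique molecular identifier, 1 per captured probe product) for each gene in each spot. With 1 section per genotype, genotype, animal and section cannot be told apart, no test between genotypes was made, and the intervals below (95%) cover counting error only.

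Hepcidin is a peptide hormone that hepatocytes secrete when iron is plentiful, and it blocks ferroportin, the exporter through which iron leaves macrophages, gut cells and hepatocytes. Its gene is driven by BMP ligands from the sinusoidal endothelium, acting through SMAD proteins, and by IL6 through STAT3. Transferrin carries iron in plasma, transferrin receptor 2 is part of the hepatocyte's sensing of it, and the lobule, with blood running from portal tracts to central veins, divides these tasks among zones.

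Mice carry a pair of hepcidin genes, Hamp and Hamp2, side by side on the minus strand of chromosome 7. Hamp spans chr7:30942368-30944029 and Hamp2 chr7:30922372-30924181 in mm10 (RefSeq, GRCm38.p6), with 18.2 kb between them. Because the copies behaved differently between the sections, the 250 bases before each start are shown, from chr7:30944030-30944279 for Hamp and chr7:30924182-30924431 for Hamp2, read 5′ to 3′ on the minus strand. Capitals mark the BMP response element letters GGCGCC and the STAT letters TTCNNNGAA.
Hamp: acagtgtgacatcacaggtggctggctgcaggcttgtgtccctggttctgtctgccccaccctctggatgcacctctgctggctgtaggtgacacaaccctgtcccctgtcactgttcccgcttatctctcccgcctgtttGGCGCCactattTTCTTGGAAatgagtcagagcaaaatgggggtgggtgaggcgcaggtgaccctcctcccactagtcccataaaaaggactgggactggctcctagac
Hamp2: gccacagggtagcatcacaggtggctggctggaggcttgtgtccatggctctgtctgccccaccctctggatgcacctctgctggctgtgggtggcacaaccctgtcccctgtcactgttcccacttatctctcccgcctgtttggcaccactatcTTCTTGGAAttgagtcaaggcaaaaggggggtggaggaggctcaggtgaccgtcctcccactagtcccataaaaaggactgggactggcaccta
The windows were identical at 227 of 247 aligned bases (91.9%). GGCGCC was found once in Hamp, 104 to 109 bases before the start, and not in Hamp2, where the substitution G145A (counted from 1 at the 5′ end of the Hamp window, Hamp base first) falls in those letters. Both windows held TTCTTGGAA. Over 32536 RefSeq windows of the same length, 9.65% held GGCGCC and 7.04% held TTCNNNGAA on either strand. These matches are letters in a window, and binding was not measured. Bases further upstream were not examined, and whether any of these letters bear on the difference between the sections was not tested. The Hamp and Hamp2 transcripts were 94.6% identical, and 60 of 361 windows of 50 bases in Hamp occurred unchanged in Hamp2. Which bases the probes cover was not examined here, so how far the counts of the pair share signal is uncertain.

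After the depth filter 2309 of 2316 spots of WT and 2163 of 2167 of C75S remained, with 42246988 and 41674347 UMIs and medians of 16830 and 18808 UMIs per spot. The sections used 1896 spot barcodes in common, which are positions of the slide layout and not shared tissue. Hepatocyte markers (Alb, Ttr and Apoa1) were present at 167124 and 172187 CPM (UMIs per 1000000 UMIs of the section). On the log2 scale, C75S over WT, Alb was at -0.07, Ttr at 0.19 and Apoa1 at 0.50. Stellate cell markers (Reln, Dcn, Colec11, Ecm1 and Lrat) summed to 580 and 723 CPM, with Reln, Dcn and Ecm1 higher in C75S by 0.37, 0.35 and 0.42 and Lrat at -0.48 on the log2 scale, and leukocyte markers (Ptprc, Cd74 and H2-Aa) to 506 and 519. A spot is a small region holding several cells, so fewer cells of a type and less RNA per cell cannot be told apart.

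Hamp was the iron gene that differed most between the sections. It stood at 928 CPM in WT (39207 UMIs, interval 919 to 937) and at 503 CPM in C75S (20952 UMIs, 496 to 510), 1.85-fold lower (1.82 to 1.88), a log2 ratio of -0.88. Of 11998 genes with at least 50 UMIs, 2.03% had a ratio this low or lower. Hamp2 was at 759 CPM in WT and 724 in C75S, a log2 ratio of -0.07 (-0.09 to -0.04) beside a median of -0.05 over all genes. Counted together, Hamp and Hamp2 were at 1687 CPM in WT and 1227 in C75S, a log2 ratio of -0.46. Hamp supplied 55.0% (54.7 to 55.4) of the pair's UMIs in WT and 41.0% (40.6 to 41.4) in C75S. The neighbour Usf2, whose first coordinate lies 2.88 kb above that of Hamp and which was picked after its values were seen, had 85.6 CPM in WT and 85.1 in C75S.

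At a difference of at least 0.32 on the log2 scale, called past the fold limit here, 3 of the 9 genes were lower in C75S (Hamp, Bmp6 and Smad7), beside 14.4% of all genes, and 0 of 9 were higher, beside 7.12%. In either direction this was 3 of 9 beside 21.5%. Of 23 measured genes within 500 kb of Hamp, Hamp and Hamp2 not counted, 6 were lower and 1 was higher past the limit, beside the same 14.4% and 7.12% of all genes. All genes split into 854 higher and 1726 lower, into 1099 and 1393 with TMM factors and into 1117 and 1380 when centred on the median gene, and the 3 members were past the limit on each of these scales. At 1.5-fold only Hamp remained of the 9, with 5.20% of all genes lower by as much.

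**Figure D1:**
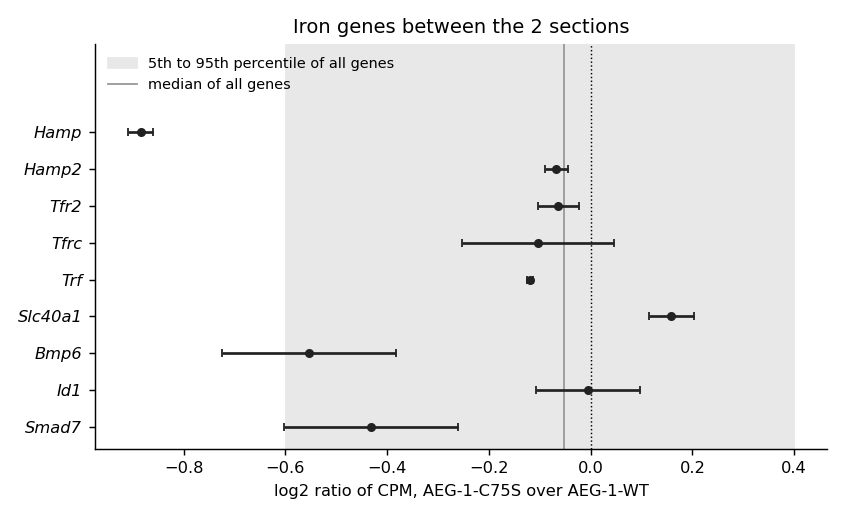
Log2 ratio of CPM, C75S over WT, for the 9 measured genes, with 95% exact binomial intervals of counting error. Grey marks the 5th to 95th percentile of 11998 genes (-0.60 to 0.40) and the grey line their median (-0.05): Hamp at -0.88 lies outside, and Slc40a1 at 0.16 is the highest of the 9.

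The lower Hamp level was seen in spots throughout the section. The median spot held 16 Hamp UMIs in WT and 9 in C75S, and 96.0% of the C75S spots (2076 of 2163) were below the WT median of 923 CPM, against 53.5% for Hamp2. No Hamp UMI was found in 3 spots of WT and 27 of C75S, and no Hamp2 UMI in 2 and 13. Empty spots also depend on depth, and the 5th percentile of UMIs per spot was 11460 in WT and 6599 in C75S. When the spots were grouped into 5 ranges of total UMIs, the Hamp log2 ratio was between -0.89 and -0.86 in every range and that of Hamp2 between -0.12 and -0.05. Variation among spots was read beyond counting error, given each spot's depth and its bin of the lobule axis described below. This coefficient of variation was 17.4% and 21.1% for Hamp, 28.0% and 22.2% for Hamp2, and 5.38% and 6.40% for Trf in WT and C75S.

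**Figure D2:**
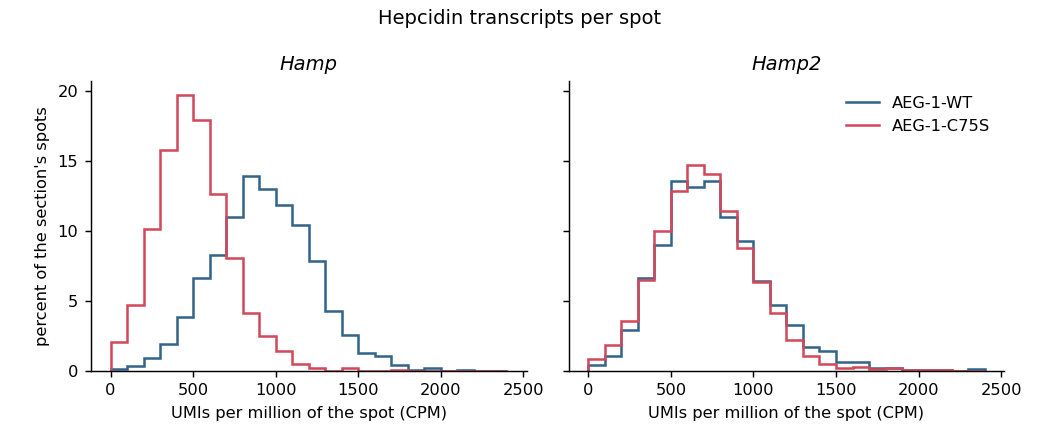
Percent of spots (y axis) by CPM of Hamp (left) or Hamp2 (right) in the spot, in steps of 100 CPM, with all values above 2300 in the last step. The Hamp medians are 923 CPM in WT and 489 in C75S, and the Hamp2 distributions, with medians of 721 and 697, nearly coincide.

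Along the lobule, both hepcidin genes were highest between the portal and central ends. Spots were ordered within each section by (Cyp2f2 + 1)/(Cyp2e1 + 1), a portal over a central cytochrome P450, and divided into 10 bins of equal size from 1 (central) to 10 (portal); hepcidin counts played no part in the order. Hamp in WT was 835 CPM in bin 1, 1050 in bin 5 and 812 in bin 10, and in C75S it was 441, 580 and 451 in the same bins. Hamp2 in WT was 701, 877 and 683 CPM in bins 1, 5 and 10, and in C75S it was 577 in bin 1, 841 in bin 6 and 636 in bin 10. The crest was broad and shallow, with the highest bin of Hamp 1.29-fold above the lowest in WT and 1.31-fold in C75S, and that of Hamp2 1.31-fold and 1.46-fold.

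Bins 4 to 7 were set against bins 9 and 10 (portal) and bins 1 and 2 (central). For Hamp the mid-lobular log2 excess was 0.27 over the portal end and 0.23 over the central end in WT, and 0.21 and 0.26 in C75S. For Hamp2 it was 0.28 and 0.20 in WT, and 0.27 and 0.36 in C75S. All 8 intervals lay above 0. A peak of this kind in both sections was found for 46 of 6663 genes with at least 500 UMIs in each section (0.69%). It was found for 2 of the 7 iron genes with that many UMIs, Hamp and Hamp2. Such a call needs narrow intervals and so depends on depth. Among genes with at least 2000 UMIs per section it was 34 of 2378 (1.43%). Bmp6 lay under the minimum in C75S, with a smallest excess of 0.27 and intervals over the central end that included 0. An axis of 6 other zone markers (Hal, Gls2, Hsd17b13 and Pck1 over Cyp1a2 and Oat) kept Hamp and Hamp2 in the peak set. On that axis Hamp was at 691, 1029 and 846 CPM in bins 1, 6 and 10 of WT. When every spot was thinned to 3000 UMIs, the smaller excess of Hamp in C75S was 0.10 (-0.03 to 0.24), an interval that includes 0.

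The gap between the sections was present in every bin for Hamp. Its log2 ratio was between -0.95 and -0.79 in the 10 bins, and each interval lay below 0. Bins are ranks within a section, and the axis gene Cyp2f2 was itself higher in C75S (log2 0.27), with 232 and 387 CPM in bin 1. The same bin number therefore need not mean the same zone in both sections. For Hamp2 the ratio ran from -0.28 to 0.05, with 4 bins below 0 beyond counting error. The share of Hamp in the pair was 54.2% to 56.1% over the bins of WT and 39.0% to 43.3% over those of C75S. The bins of a section share 1 animal and 1 library, so they are not replicates of a genotype.

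**Figure D3:**
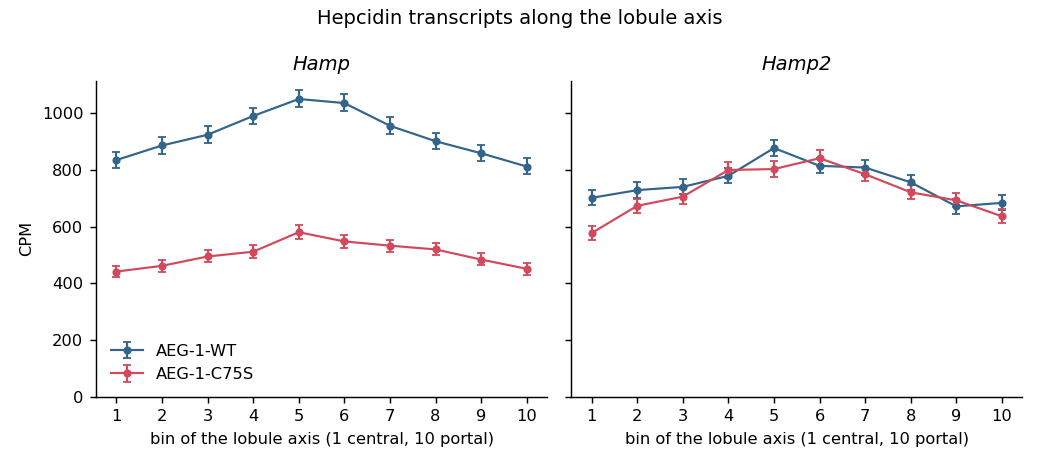
CPM of Hamp (left) and Hamp2 (right) in bins of the lobule axis, from 1 (central) to 10 (portal), with 95% exact Poisson intervals. Hamp is highest in bin 5 of both sections (1050 and 580 CPM), with the C75S curve below the WT curve throughout, while the Hamp2 curves cross.

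The genes whose profile along the 10 bins was most like that of Hamp, of 1524 ranked by the lower Pearson r of the sections, were Fcna (0.84 and 0.85 in WT and C75S), C1qa (0.83 and 0.89), Mrc1 (0.91 and 0.83), Ccnd1 (0.92 and 0.82) and Vsig4 (0.82 and 0.87). Hamp2 itself was at 0.93 and 0.91. Fcna, C1qa and Vsig4 are genes of Kupffer cells, the resident macrophages, Mrc1 is a scavenger receptor of sinusoidal endothelium and macrophages, and Ccnd1 encodes cyclin D1. These r describe 10 points that share libraries and totals. Fcna, C1qa, Mrc1, Ccnd1 and Vsig4 were picked for their r from 1524 genes, so high values follow from the choice. The 6 Kupffer cell markers summed (Clec4f, Vsig4, Cd5l, Marco, Timd4 and Adgre1), with the picked Vsig4 among them, were also higher in the mid-lobular bins. The excess was 0.17 and 0.38 over the portal and central ends in WT and 0.26 and 0.42 in C75S. This was not particular to Kupffer cells. Leukocyte markers were higher by 0.07 and 0.38 in WT and 0.25 and 0.21 in C75S. Sinusoidal endothelium markers, which include Mrc1, were higher by 0.41 and 0.05, and 0.33 and 0.13. Stellate cell markers were higher by 0.46 and 0.04, and 0.53 and 0.04. The remaining marker lists were not above both ends in either section.

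Bmp6, the endothelial ligand that raises hepcidin when iron stores are high, was at 16.6 CPM in WT (702 UMIs) and 11.3 in C75S (472 UMIs), a log2 ratio of -0.55 (-0.72 to -0.38). It was below 0 in all 10 bins, beyond counting error in 4. In both sections Bmp6 was higher mid-lobularly than at the portal end, by 0.65 (0.32 to 0.995) in WT and 0.52 (0.13 to 0.92) in C75S, and its excess over the central end, 0.30 and 0.27, had intervals that included 0. The 6 sinusoidal endothelium markers (Stab2, Clec4g, Fcgr2b, Oit3, Mrc1 and Kdr) summed to 673 and 696 CPM. Of these, 0 of 6 were past the fold limit in either direction, beside 21.5% of all genes, and 6 genes are few for such a count.

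Among genes that BMP and SMAD signals switch on, Smad7, an inhibitory SMAD, was at 15.9 CPM in WT and 11.8 in C75S, a log2 ratio of -0.43 (-0.60 to -0.26). Id1, a dominant-negative helix-loop-helix factor, was at 37.3 and 37.1 CPM, a log2 ratio of -0.01 (-0.11 to 0.10). Id1 was higher at the portal than the central end, by 0.50 (0.26 to 0.74) in WT and 0.24 (0.01 to 0.47) in C75S. The Smad7 contrasts along the axis all had intervals that included 0, at 671 and 491 UMIs in a section.

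Neither transferrin receptor gene was past the fold limit. Tfr2 was at 246 CPM in WT and 235 in C75S, a log2 ratio of -0.06, and its bins lay between 231 and 271 CPM and between 215 and 265. Tfrc, the transferrin receptor of iron uptake, was at 18.2 and 16.9 CPM, a log2 ratio of -0.10 (-0.25 to 0.05). It was higher at the portal than at the central end, by 0.53 (0.19 to 0.88) and 0.55 (0.18 to 0.91). The profiles most like that of Tfr2 were those of Fads1, Stard7, Rnpepl1, Acadvl and Saraf, each with r of at least 0.81 in both sections. They were picked for their r from 1524 genes, so high values follow from the choice. The Tfr2 profile itself was shallow, 1.17-fold from lowest to highest bin in WT and 1.24-fold in C75S. Its highest bin was 1 in WT and 10 in C75S, so no shared zonation is read from these r.

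Trf, which encodes transferrin, was at 11578 CPM in WT (489136 UMIs) and 10655 in C75S (444050 UMIs), a log2 ratio of -0.12. The ratio was below 0 beyond counting error in all 10 bins, between -0.15 and -0.08. With this many UMIs even small differences pass counting error. The median over all genes was -0.05, and 37.2% of them had a ratio as low as that of Trf or lower. Over 9 alternatives the Trf ratio ran from -0.13 to -0.07. Trf was higher at the portal than at the central end, by 0.15 in WT and 0.13 in C75S, with 11373 CPM in bin 1 and 12746 in bin 10 of WT and 10597 and 12079 in C75S.

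Slc40a1, which encodes ferroportin, was at 185 CPM in WT and 207 in C75S, a log2 ratio of 0.16 (0.11 to 0.20), and was higher beyond counting error in 7 of 10 bins. It was lowest in bin 1 of both sections (150 and 169 CPM), and its mid-lobular excess over the central end was 0.29 and 0.25. Kupffer cell markers were also higher in C75S. They summed to 824 CPM in WT and 1102 in C75S, with 6 of 6 higher (log2 0.10 to 1.62) and none at 0. Of these, 5 were past the fold limit, beside 7.12% of all genes. The macrophage gene Cd163, not in the marker list, went the other way (log2 -0.47), and Mrc1 was at 0.03. The part of Kupffer cells in the Slc40a1 difference was not tested.

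**Figure D4:**
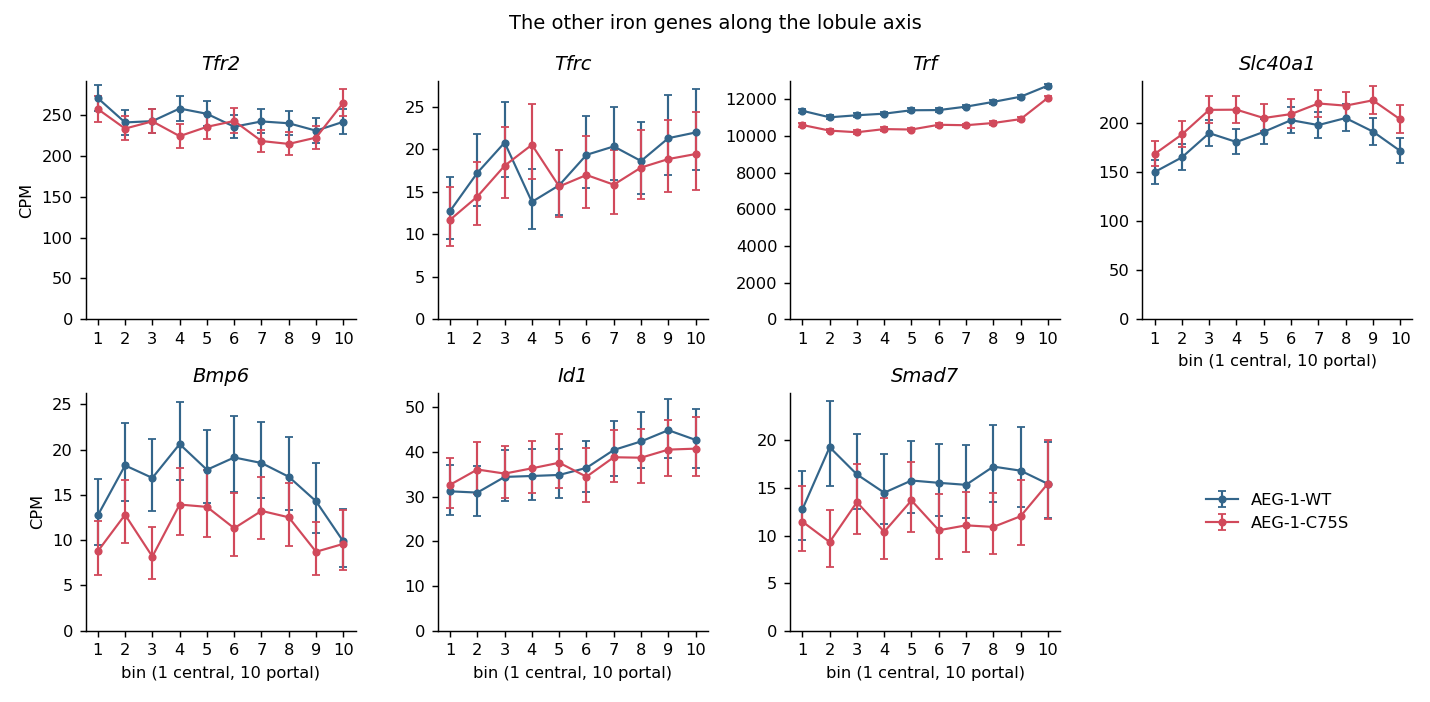
CPM of the 7 other measured iron genes in bins of the lobule axis (1 central, 10 portal), with 95% exact Poisson intervals and a y axis from 0 that differs between panels. Trf is lower in C75S in all 10 bins, Slc40a1 is lowest in bin 1 of both sections, and Bmp6 is below WT in each bin.

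The iron genes were also read beside cell markers within bins of the axis. The 10% of spots with the highest summed share of a marker list were taken in each bin (230 spots in WT, 210 in C75S). They were set against the other spots of the same bins. A bin does not fix the zone. In spots rich in central hepatocyte markers (Cyp2e1, Cyp1a2 and Oat), the list gene Oat was higher by 1.18 and 1.36 in WT and C75S. Hamp there was -0.16 and -0.33 and Hamp2 -0.13 and -0.26. In portal hepatocyte-rich spots Hamp was 0.0011 and -0.047. The contrasts below are therefore not free of zonation. In Kupffer-rich spots Slc40a1 was 253 CPM against 179 in WT and 285 against 199 in C75S, log2 ratios of 0.50 (0.40 to 0.60) and 0.52 (0.43 to 0.61). Hamp in those spots was 0.03 (-0.02 to 0.08) and 0.12 (0.06 to 0.19), and Tfr2 was -0.13 and -0.23. Bmp6 was higher in endothelium-rich spots of WT, by 0.53 (0.18 to 0.87), and at 0.44 (-0.01 to 0.86) in C75S. In bile duct-rich spots it was 0.53 (0.21 to 0.83) in WT, or 0.12 with the top 20% of spots, and -0.33 (-0.91 to 0.19) in C75S.

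Both hepcidin genes were lower in spots rich in bile duct or portal connective tissue markers than in other spots of the same bins. These spots were taken from every bin, so they need not lie in portal tracts. In bins 1 and 2 the bile duct list summed to only 30.4 CPM in WT and 37.2 in C75S, and the connective tissue list to 36.5 and 25.4. In bile duct-rich spots (Spp1, Epcam, Krt19, Krt7 and Sox9) Hamp was -0.22 and -0.29 and Hamp2 -0.23 and -0.30 in WT and C75S. In spots rich in portal connective tissue markers (Mgp, Dpt, Col1a1 and Gsn) Hamp was -0.28 and -0.31 and Hamp2 -0.21 and -0.19. All 8 intervals lay below 0. CPM is a share of the UMIs, so more RNA of other cells in a spot lowers the share of any hepatocyte gene. Whether the lower values are particular to hepcidin was not tested. The 2 marker lists also differed between the sections. Connective tissue markers summed to 90.8 CPM in WT and 33.2 in C75S, with 4 of 4 lower past the fold limit. Bile duct markers summed to 129 and 96.6, with 4 of 5 lower past it. Of all genes 14.4% were lower past the limit. In C75S the connective tissue list was at 25.4, 29.0 and 42.9 CPM at the central end, the mid-lobular bins and the portal end. A high rank for it there need not mark a portal tract. With this limit, the 347 spots per section in the top 10% of the whole section for either list were left out (portal marker spots below). Without them the Hamp log2 ratio between the sections was -0.90, and the smaller mid-lobular excess of Hamp was 0.17 in WT and 0.16 in C75S.

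In the spots richest in Hamp for their bin, Hamp2 was higher by 0.23 (0.18 to 0.28) in WT and 0.09 (0.04 to 0.15) in C75S, and Tfr2 by 0.12 (0.02 to 0.21) and 0.24 (0.14 to 0.34). Trf was 0.01 in both. Id1 was -0.37 (-0.66 to -0.09) in WT and 0.20 (-0.05 to 0.45) in C75S. Connective tissue markers were lower in these spots by -1.85 and -1.01 and bile duct markers by -1.43 and -1.25. The central vein endothelium markers Rspo3, Wnt2 and Wnt9b were at -0.56 and -0.66, and central hepatocyte markers at -0.18 and -0.08. As the spots were chosen for their Hamp share, the connective tissue and bile duct values read the relation given above from the other side.

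**Figure D5:**
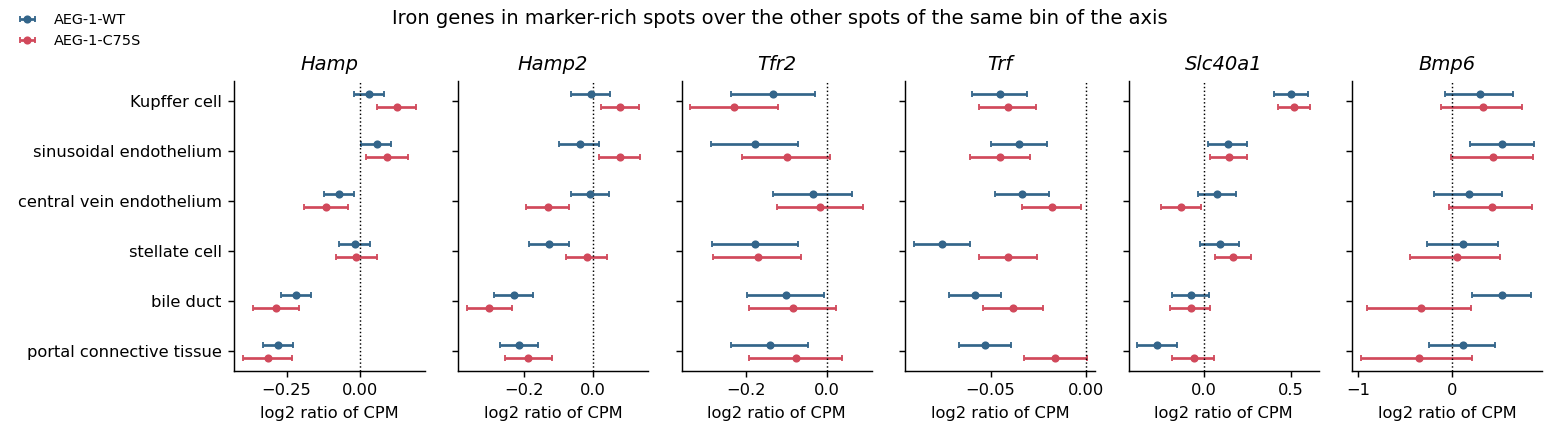
Log2 ratio of CPM, spots ranked in the top 10% of their bin for a marker list (rows) over the other spots of the same bin of the lobule axis, for 6 iron genes, with 95% exact binomial intervals; the x scale differs between panels. Slc40a1 is raised in Kupffer-rich spots of both sections (0.50 and 0.52), and Hamp and Hamp2 are lower in bile duct-rich and portal connective tissue-rich spots.

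The wider pathway was read from 8 lists holding 84 genes, of which 81 had at least 50 UMIs. Of these, 20 were past the fold limit, near the 21.5% of all genes past it in either direction. By direction 13 of the 81 were higher in C75S and 7 were lower. This split was the reverse of that over all genes, 854 higher and 1726 lower. The counts of the single lists below stand beside 7.12% of all genes higher and 14.4% lower. Of 14 BMP receptors, ligands and SMADs 2 were higher, the receptor Acvr1 (12.7 and 16.3 CPM in WT and C75S) and Smad9 (25.8 and 39.9), and 2 were lower, Bmp6 and the ligand Bmp4 (4.09 and 2.69). Of 8 BMP-SMAD targets 2 were higher, Id2 (33.9 and 44.9 CPM) and Atoh8 (37.9 and 48.5), and 2 were lower, Hamp and Smad7, with a list median of -0.13.

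Beside the same 7.12% higher and 14.4% lower of all genes, 1 of 8 measured co-factors of iron sensing was higher, Gdf15 (54.3 and 81.4 CPM), a stress cytokine, and 0 were lower. Of 8 genes of the IL6 and STAT3 input 1 was higher, Socs3 (15.5 and 23.6 CPM), the feedback inhibitor of STAT3 signalling, and 0 were lower. Acute phase genes, many of which answer to the same cytokine, had 5 of 12 higher and 2 lower: the glycoprotein genes Orm2 (39.1 and 87.2 CPM) and Orm3 (10.7 and 24.3), close paralogs whose counts could share signal, and the fibrinogen genes Fga, Fgb and Fgg (log2 ratios of 0.55, 0.47 and 0.52) were higher, while Saa3 (5.54 and 3.62 CPM) and Lcn2 (17.4 and 12.7) were lower. The list median was 0.17 against -0.05 over all genes.

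Of 14 measured genes of iron uptake, export and reduction 1 was past the limit, beside 21.5% of all genes, the metalloreductase Steap4 (75.4 and 95.2 CPM), with a list median of 0.09. Of 8 genes of iron storage and iron-responsive control 0 were past it in either direction, with a median of 0.01. Among 10 genes of haem scavenging Hmox1, the haem-degrading oxygenase, was higher (18.7 and 25.6 CPM) and Cd163, the haemoglobin receptor of macrophages, was lower (44.4 and 32.1). The red blood cell markers were lower as well, 627 and 416 CPM summed over 4 genes, 4 of 4 past the fold limit, beside 14.4% of all genes. This did not hold in every zone. In WT and C75S they were at 803 and 477 CPM at the central end, 627 and 323 in the mid-lobular bins, and 588 and 612 at the portal end.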

How the data were processed

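Visium libraries of 1 AEG-1-WT and 1 AEG-1-C75S liver section were analysed. The deposited values are raw UMI counts that the authors obtained from Space Ranger 2.0.1 with mm10 and its probe set per gene and spot without normalization; 0 columns belonged to other samples. Spots with at most 50000 UMIs and 100 to 7000 genes were kept, and the first entry was used for 11 repeated symbols. Counts were summed over spots, expressed as CPM and compared with exact Poisson and exact binomial (Clopper-Pearson) intervals at 95%. PCR and spots give no replicate error, so no p-value is given. Sums and exact intervals used scipy 1.17.1 and pandas 2.3.3 under python 3.11.15, tested on simulated data, and TMM factors came from edgeR 4.0.16. Because probes differ, levels were not compared between genes; the share of Hamp in the UMIs of Hamp and Hamp2 was compared only between sections and bins.

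The 10 genes, the gene and marker lists and the contrasts were chosen with earlier results of these data known. Text names cover the 10 genes, list genes past the fold limit with at least 200 UMIs, the 5 genes most like Hamp and Tfr2 (at least 2000 UMIs per section and 1.2-fold range) and marker genes. Upstream windows came from RefSeq, which matched Hamp and Hamp2, and transcripts from GENCODE. The alternatives were no spot filter, equal weight per spot or bin, and totals without the 20 most abundant genes or the axis genes. Others were centring, TMM, thinning, depth matching, another axis, other groupings of bins, and other minimums and folds. A larger top share of spots was also taken, and portal marker spots were left out.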

Additional observations from a re-analysis of the deposited data

How the results depend on the processing

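No paired analysis was possible because there was 1 section per genotype. The Hamp log2 ratio between the sections ran from -0.90 to -0.83 over 9 alternatives: it was -0.84 on totals without the 20 most abundant genes, -0.83 when centred on the median gene and -0.83 with TMM factors. The Hamp2 ratio was -0.023, -0.015 and -0.017 on those scales and -0.11 when each spot was thinned to 3000 UMIs, and below 0 under all 9. At 1.5-fold the count past the fold was 1 of the 9 genes, 8 of the 81 measured list genes and 899 of all 11998 genes (7.49%). The smaller mid-lobular excess had a value above 0 for Hamp and Hamp2 in both sections under 9 alternatives each. For Hamp it was 0.28 in WT and 0.27 in C75S with 5 bins of the axis. With bins 5 and 6 against bins 1 and 10 it was 0.32 in both, and without portal marker spots 0.17 and 0.16. Thinning gave 0.10 in C75S, with an interval (-0.03 to 0.24) that included 0. For Hamp2 it was 0.24 in WT with 5 bins, and 0.27 and 0.37 with bins 5 and 6 against bins 1 and 10. After thinning the Hamp2 excess was 0.28 and 0.19. In C75S it was 0.23 on the other axis and 0.20 without portal marker spots. The peak count was 31 of 6663 genes with a 1.1-fold minimum, 47 of 6659 on the other axis (29 shared with the main set) and 34 of 2378 with at least 2000 UMIs, with Hamp and Hamp2 in each. The Tfr2 portal over central ratio in WT, -0.12, became 0.0019 after thinning and 0.042 on the other axis, and Trf in central hepatocyte-rich spots of C75S, 0.022, became -0.00088 with the top 20% of spots. The cause of these moves was not tested. Bmp6, Smad7 and Tfrc had under 800 UMIs in a section, which limits their contrasts along the axis.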
